A study of Nicotiana tabacum with 32 samples.

Results

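On a potato cDNA array hybridised with tobacco RNA, 82 of 32448 spots read lower after silencing of SIPK than in the wild type in each of 8 conditions. They came from 48 of 15360 clones, a clone being a cDNA printed as a pair of spots. The spots were chosen by their measured values: no gene symbol or a potato locus number as symbol, at least 2 values in each of the 8 genotype groups of 3 arrays, and a group mean log2 ratio of -0.7 or less in all 8. Enough values were present for 10964 spots, of which 10736 had no symbol or a locus number and 228 another symbol, and 0 of these 228 met the same values. Among the 82 spots, 54 had no symbol and 28 had 1 of 7 locus numbers. Both spots met the rule in 34 clones and 1 spot did in 14. In 12 of these 14 the partner spot had a group mean above the limit, at most -0.48, and in 2 it had too few values. The spots lay in all 12 sections of the array, with 2 to 15 in each. No clone has a gene description in the files, so each is called here by the lower of its spot numbers, with the locus number where it has one.

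The RNA came from Xanthi tobacco (Nicotiana tabacum) suspension cultures of both genotypes, the wild type and a culture with SIPK silenced through RNA interference, grown in the dark in MS medium. In the genotype comparison, 24 arrays each paired silenced with wild-type RNA of the same condition, with 3 arrays each for a biotic control at 0 h, harpin at 4 h and 8 h, megaspermin at 4 h and 8 h, an abiotic control at 0 h, and xanthine oxidase at 4 h and 8 h. Cells of the 3 abiotic groups, their control included, had been incubated with xanthine for 30 min, and those of the biotic groups had not. Another 6 arrays compared treated wild type at 4 h, 3 with harpin and 3 with megaspermin, with untreated wild type at 0 h, and 2 single arrays repeated the abiotic control and the wild-type harpin comparison with the dyes exchanged. Each genotype was 1 pooled culture divided into volumes, so a spread between arrays or a p-value covers volumes of that pool and not independent cultures or silenced lines. Controls were taken at 0 h only, and the effects of a treatment and of the hours since the control cannot be told apart.

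SIPK, the salicylic acid-induced protein kinase of tobacco, is a mitogen-activated protein kinase. Such kinases stand at the end of a phosphorylation cascade, are switched on within minutes by pathogen elicitors, wounding and oxidative stress, and act on transcription factors and other proteins of the defence response. RNA interference lowers the messenger RNA of a gene through a matching double-stranded RNA. Harpin is a protein that plant-pathogenic bacteria such as Pseudomonas syringae secrete, megaspermin is a protein elicitor of the oomycete Phytophthora megasperma, and both can trigger defence and cell death in tobacco. Xanthine oxidase makes superoxide from xanthine and so puts cells under oxidative stress. The labels name P.megasperma as the source of megaspermin on the genotype arrays but P.syringae where wild-type cells alone were used, and the name was taken to mean 1 elicitor in both sets.

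Values are deposited log ratios, taken as base 2, averaged over the 2 spots of a clone. Negative values likely mean a lower level in silenced or treated cells, because the labels call these cells the query and the others the reference; in the titles the order is the reverse, and which channel was divided by which is not given in the sources used here. Lower, higher, fell and rose are used below in this likely direction. Were the ratios the other way round, all 48 clones would be higher in silenced cells and each fall or rise in the wild type would be its opposite, while sizes, tests and counts would stay. Array medians lay between -0.07 and 0.07, and 8258 to 21105 spots had a value on an array. Replicate arrays correlated at 0.648 to 0.908 over spots. No symbol on the array named SIPK or another mitogen-activated protein kinase (0 matches), so how far SIPK was silenced could not be read, and no marker list was available for the cultured cells. A potato clone can also bind relatives of its gene among the tobacco transcripts. In whole-culture RNA, fewer cells of a kind and less RNA per cell cannot be told apart.

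In the likely direction, the 48 clones read in silenced cells from 1.88-fold to 10.2-fold lower than in wild-type cells on average over the 8 conditions, with a median of 3.09-fold. These genotype values chose the clones, so they are given as a description and carry no test. The mean log2 ratio over the 8 group means ran from -3.34 to -0.91, with a median of -1.63. It was -2 or lower in 16 clones and above -1 in 2. On single arrays, all 1147 measured values of the 48 clones, out of 1152 possible, were below 0. The spread between replicate arrays was small beside these values: the SD within a group, averaged over the 8 groups, had a median of 0.24 over the clones and ran from 0.12 to 0.61. The 2 spots of a clone correlated over the arrays with a median of 0.941 and a lowest value of 0.445. At the limit itself, the spots just inside it had their highest group mean at -0.709 (spots 158325 and 138111) and -0.721 (spot 135083, the member spot of LOC102577779). The spots just outside stood at -0.699 (135624 of LOC102587499), -0.696 (157018) and -0.690 (160930 of LOC102582711). When both spots were averaged, 45 of the 48 clones stayed at -0.7 or lower in all 8 groups, and clones 134239, 148010 and 155591 reached -0.65, -0.65 and -0.68 in 1 or more groups.

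**Figure D1:**
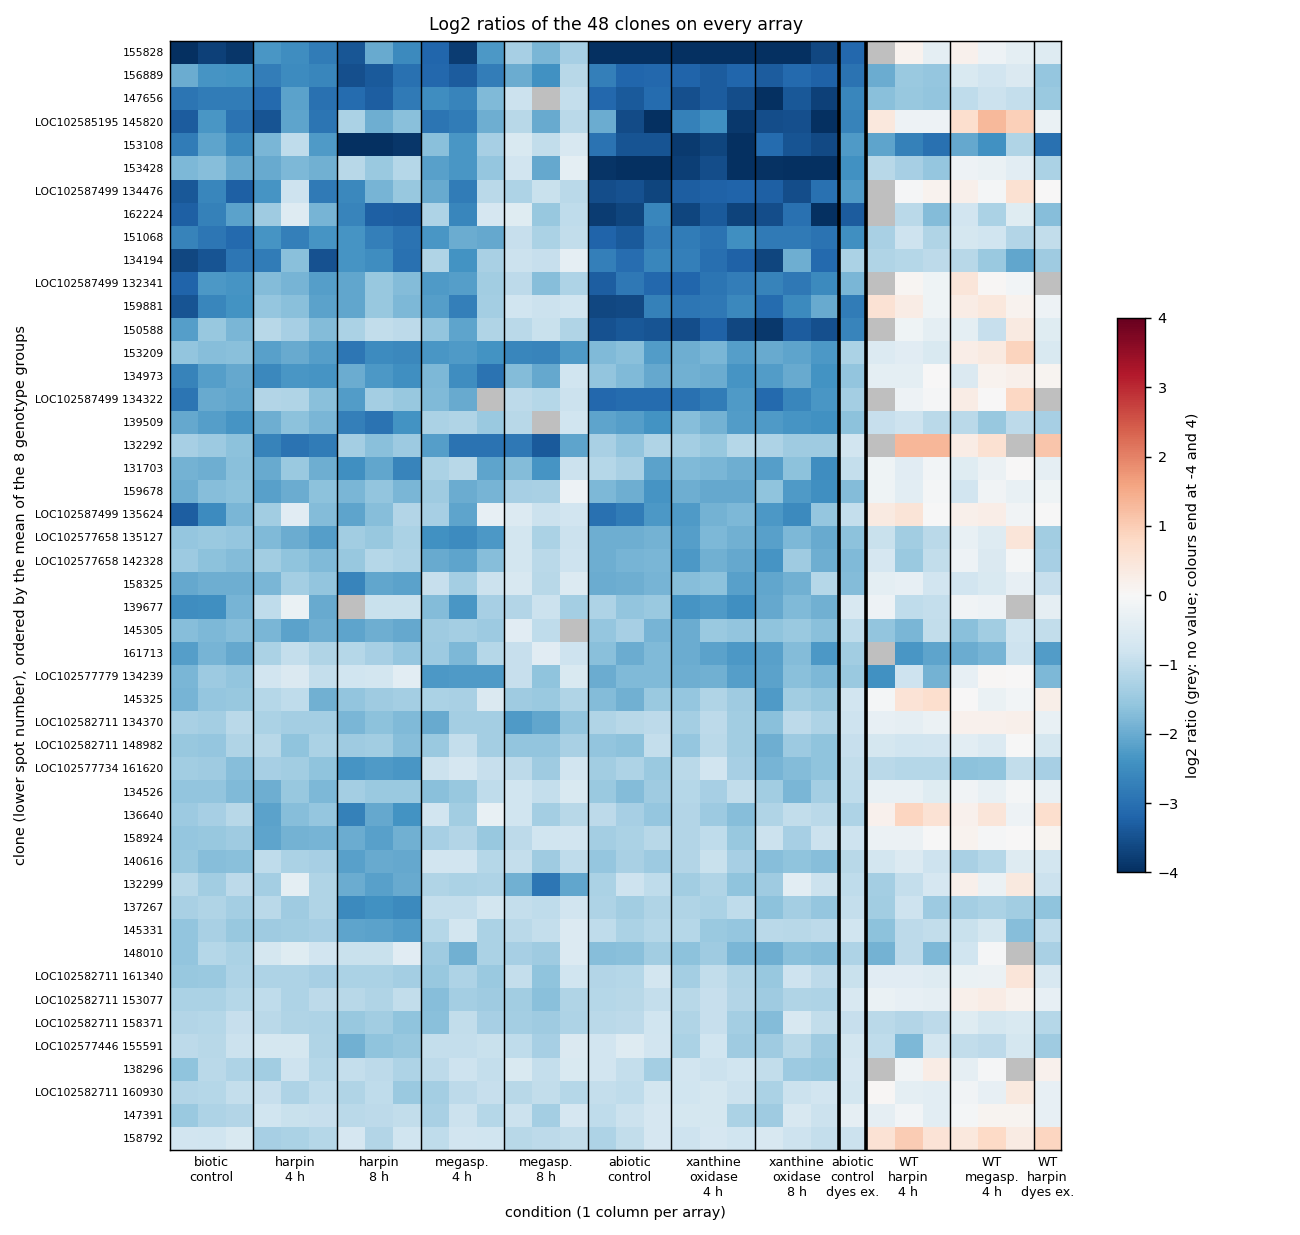
Log2 ratio of each of the 48 clones (rows, lowest mean at the top) on each of the 32 arrays (columns, grouped by condition; dyes ex., dyes exchanged). On the left, silenced over wild-type cells, every measured square is blue (below 0); on the right, elicited over untreated wild-type cells, blue and red squares both occur. Grey squares have no value.

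Clone 155828, with no symbol, had the lowest mean ratio of the set, -3.34, or 10.2-fold lower in silenced cells. Its arrays read -4.59, -4.56 and -4.52 in the abiotic control and -4.57, -3.73 and -3.90 in the biotic control. With megaspermin they read -3.16, -3.79 and -2.30 at 4 h and -1.32, -1.84 and -1.32 at 8 h. All 3 arrays at 8 h of megaspermin thus lay above every array of both controls. Clone 156889 (mean -2.82) varied less: its group means ran from -3.29 at 8 h of harpin to -1.83 at 8 h of megaspermin. Clone 147656 (mean -2.78) read -3.98, -3.40 and -3.73 at 8 h of xanthine oxidase, and -0.85 and -0.96 on the 2 measured arrays at 8 h of megaspermin. At the other end, clone 147391 had a mean of -1.0 and clone 158792 one of -0.91. Clone 158792 read -0.75, -0.80 and -0.61 in the biotic control and -1.34, -1.26 and -1.15 at 4 h of harpin, where the groups did not overlap.

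The clones differed in how far the ratio moved between conditions. The range of a clone's 8 group means had a median of 1.43 and ran from 0.41 to 3.29. The widest ranges were those of clone 153108 (3.29) and clone 153428 (3.29). Clone 153108 read -4.20, -4.01 and -3.88 at 8 h of harpin and -0.60, -0.98 and -0.63 at 8 h of megaspermin, so that at the same hour the ratio was among the deepest of the set with harpin and near the limit with megaspermin. Clone 153428 split by set: its arrays lay between -2.33 and -0.38 in the 5 biotic groups and between -4.80 and -3.56 in the 3 abiotic groups, with no overlap. Clones 148982 and 161340, both of LOC102582711, had the narrowest ranges (0.41 and 0.41). Clone 148982 read -1.52, -1.54 and -1.22 in the biotic control and -1.94, -1.46 and -1.62 in its lowest group, xanthine oxidase at 8 h, and these arrays overlapped. Replicates were closest in clones 137267 (mean SD 0.12) and 153077 of LOC102582711 (0.13). They were farthest apart in clones 145820 of LOC102585195 (0.61) and 162224 (0.59). Clone 137267 read -1.31, -1.21 and -1.36 in the biotic control and -2.55, -2.43 and -2.56 at 8 h of harpin, a gap many times its spread. Clone 162224 read -1.23, -2.62 and -0.67 at 4 h of megaspermin, where replicate 2 lay far below the other 2 arrays.

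**Figure D2:**
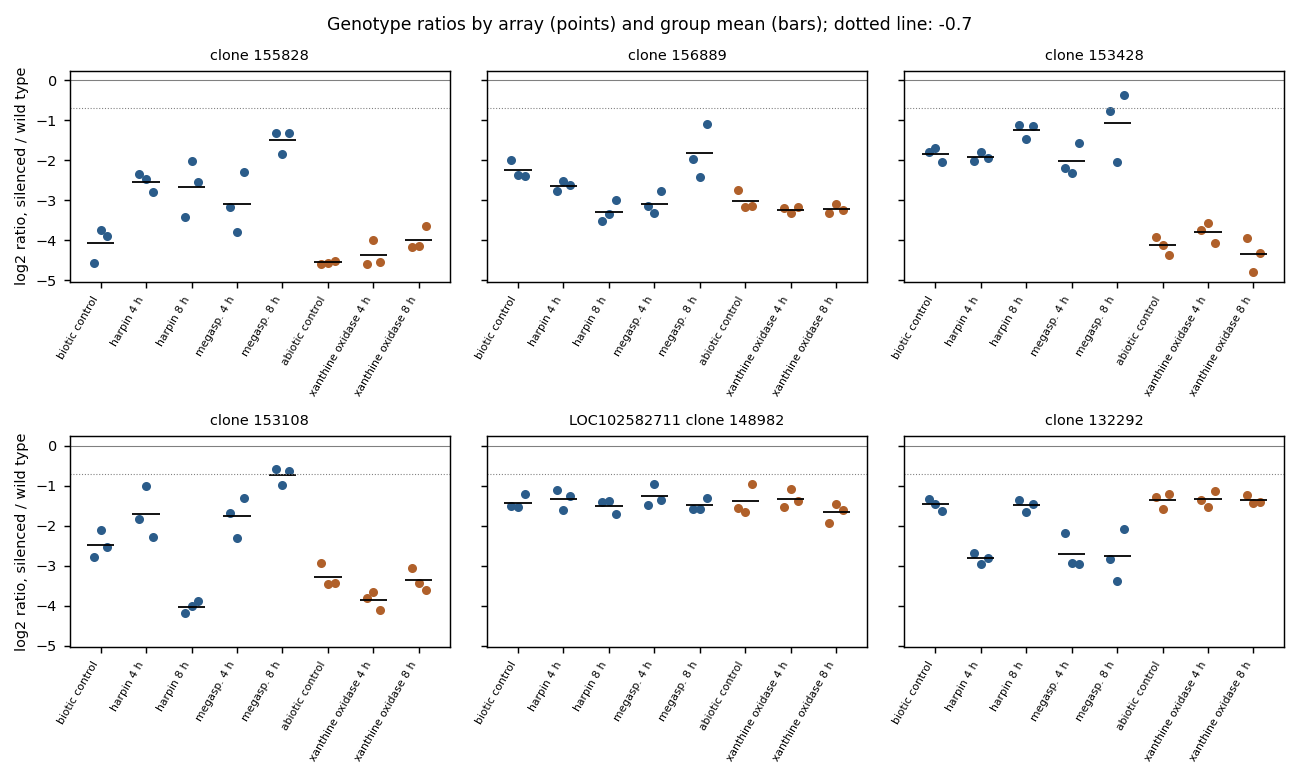
Log2 ratios of silenced over wild-type cells for 6 clones in the 8 conditions (points, single arrays; black bars, group means; blue, biotic set; orange, abiotic set). Clone 153428 lies at -3.56 or lower on every abiotic array and at -2.33 or higher on every biotic one, while clone 148982 of LOC102582711 stays between -1.94 and -0.95 on all 24 arrays.

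Over the whole set, the ratio was closest to 0 at 8 h of megaspermin. The median of the 48 clones there was -1.06 (range -2.77 to -0.71), against -1.65 in the biotic control (-4.07 to -0.72) and -1.50 at 4 h of megaspermin (-3.08 to -0.82). This condition was the highest of the 8 for 27 clones and the lowest for 2. Of the 45 clones with all 6 arrays, 26 had every array at 8 h of megaspermin above every array of the biotic control, and 6 had every array below. Over the 6587 clones of the array with all 6 values such a shift upward held for 26.2% and downward for 26.1%. In each such share of all clones, here and below, only clones with 3 values in both groups count (5445 to 9026 clones). The rule bounds each group mean at -0.7 from above, so nothing is read from these shares. For counts of highest and lowest groups, here and below, no share over all clones was computed, and nothing is read from them. With 3 arrays the medians at 8 h of megaspermin were -1.04, -1.35 and -0.86. Against megaspermin at 4 h, 13 of 44 clones lay above without overlap and 1 below (20.1% and 15.7% of all clones).

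With harpin the ratios went both ways. At 4 h the median was -1.52, and 13 of 48 clones lay above all biotic control arrays while 8 lay below (19.2% and 20.7% of all clones). At 8 h the median was -1.75, the lowest group mean of 16 clones lay there, and 12 of 47 clones lay above the control and 17 below (22.8% and 23.7%). From 4 h to 8 h, 5 of 47 clones lay higher and 16 lower (23.5% and 19.9%). At 4 h of megaspermin 14 of 47 clones lay above the control and 6 below (22.6% and 19.9%). Clone 132292 was lower at 4 h of harpin, with arrays at -2.68, -2.96 and -2.80, than in the biotic control, with -1.33, -1.45 and -1.63. By 8 h of harpin it was back at -1.37, -1.66 and -1.45, overlapping the control, while at 8 h of megaspermin it read -2.85, -3.38 and -2.09. It was the only one of the 48 whose mean over the biotic groups lay at least 0.5 below that over the abiotic groups (-0.90).

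In the abiotic set the medians of the 48 clones lay close together, at -1.75 in the abiotic control, -1.90 at 4 h and -1.89 at 8 h of xanthine oxidase. At 4 h, 4 of 48 clones lay above all control arrays and 4 below (8.92% and 10.5% of all clones), and at 8 h 1 lay above and 6 below (6.74% and 8.45%). In 18 clones the mean over the 3 abiotic groups was lower than that over the 5 biotic groups by 0.5 or more, by 2.47 in clone 153428. The rule used these values and no share over all clones was computed. Nothing is therefore read from this count or from the 1 clone the other way. Between the controls alone, 8 of 48 clones lay higher in the abiotic control without overlap and 9 lower (15.2% and 13.8%).

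A locus number was carried by 16 of the 48 clones, from 7 potato loci with no description in the files. LOC102582711 had 6 clones on the array and all 6 were in the set. Their means ran from -1.44 to -1.03, and their group means averaged over the 6 clones stayed between -1.40 and -1.07 in all 8 conditions. Both clones of LOC102577658 were in the set (135127, mean -1.77, and 142328, -1.65). They were lowest at 4 h of megaspermin (135127, -2.41 ± 0.11, SD, n = 3) or xanthine oxidase (142328, -2.08 ± 0.19, SD, n = 3) and highest at 8 h of megaspermin (-0.95 and -0.87). The other loci had 1 clone each in the set apart from LOC102587499. LOC102585195 (clone 145820) had the lowest mean of the clones with a locus number, -2.66, with -3.54, -3.50 and -4.22 at 8 h of xanthine oxidase and -1.10, -2.03 and -1.09 at 8 h of megaspermin. Its remaining clone, 155929, lay still lower, at -3.12 over the 8 groups, but had at least 2 values in only 7 of them. LOC102577734 (clone 161620, -1.42) had its other clone, 139878, at -1.18. LOC102577779 (clone 134239, -1.51) had its other clone, 144870, at -1.30, and read -2.30, -2.27 and -2.26 at 4 h of megaspermin against -0.76, -0.57 and -0.96 at 4 h of harpin. LOC102577446 had 1 of 7 clones in the set (155591, -1.08), and the other 6 had means from -0.91 to -0.64.

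LOC102587499 stood apart from this pattern, since its 10 clones lay on both sides of 0. In the set were clones 134476 (mean -2.52), 132341 (-2.30), 134322 (-2.10) and 135624 (-1.77). All 4 were lowest in the abiotic control, where clone 134476 read -3.56, -3.48 and -3.66, and highest at 8 h of megaspermin, where it read -1.22, -0.89 and -1.07. The other 6 clones with this symbol had means of 2.02 (157119), 1.34 (134460), 1.06 (158862), 0.52 (140142), 0.31 (153368) and 0.17 (159984). Clone 157119 was above 0 on all 23 of its measured arrays, from 0.05 to 3.80. It was 1 of 60 clones with at least 1 spot whose group mean was 0.7 or more in all 8 conditions. These were sought only among spots with no symbol or a locus number. The 4 lower clones correlated with each other at 0.913 to 0.962 over the 30 arrays other than the dye-exchanged ones. These include the 6 wild-type arrays, where the means of the 4 clones lay between -0.13 and 0.39, and that contrast raises the correlation. This range is therefore not on the same footing as the next 2. Between lower and other clones the correlation over the genotype arrays ran from -0.874 to 0.12, and among the other 6 from -0.545 to 0.889. The same symbol therefore covered clones with opposite ratios, and whether they read the same tobacco transcript was not tested.

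**Figure D3:**
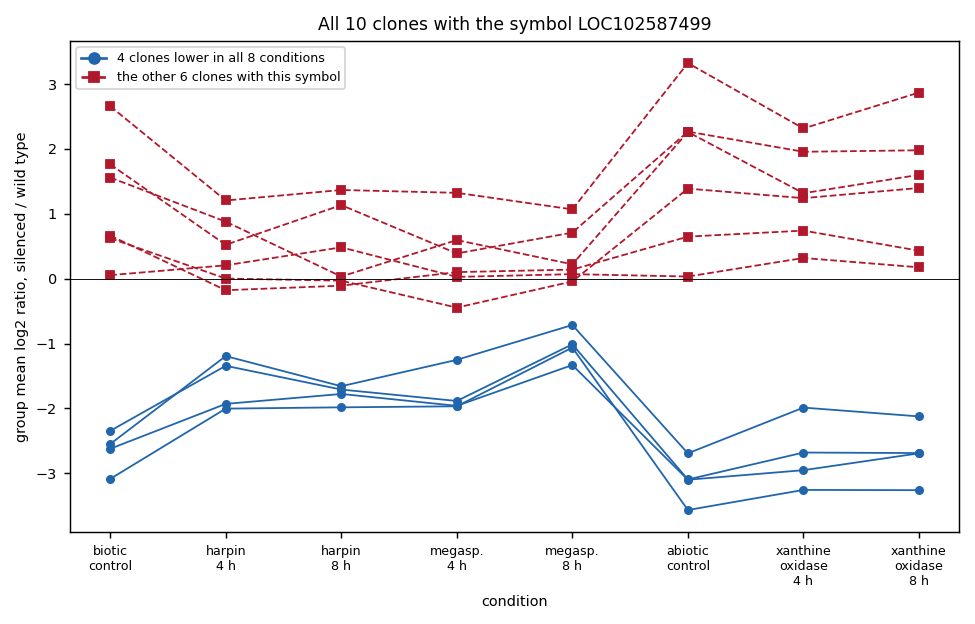
Group mean log2 ratio, silenced over wild-type cells, of all 10 clones with the symbol LOC102587499 in the 8 conditions (lines join the means of 1 clone). The 4 clones of the set (blue circles) lie below -0.7 throughout and come closest to 0 at 8 h of megaspermin, while the other 6 (red squares) lie mostly above 0 and reach 3.32 in the abiotic control.

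Each clone without a symbol was set against the 16 clones with a locus number, and only these, over the arrays. Among them, clone 155828 was most like clone 132341 of LOC102587499 (r = 0.979 over 29 arrays), and so was clone 159881 (r = 0.961). Clone 153209 was most like clone 134370 of LOC102582711 (r = 0.933), clone 147391 most like clone 161340 of the same locus (r = 0.923), and clone 148010 most like clone 134239 of LOC102577779 (r = 0.907). Over all 1128 pairs of the 48 clones the correlation ran from -0.671 to 0.979, with a median of 0.551. These correlations are descriptions over arrays that share 10 groups and the common difference between genotype and wild-type arrays, and the pairs were chosen by their size.

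The array of the abiotic control with the dyes exchanged took no part in the choice of clones. It repeated a condition whose 3 standard arrays the rule had used, and may carry the same RNA. Low values on it are therefore not an independent test. On it 48 of 48 clones were below 0, against 57.6% of the 10303 clones with a value there. At -0.7 or lower were 44, against 2.66%. Its values ran from -3.32 to -0.37, with a median of -1.23, where the 3 standard arrays gave a median of -1.75. In 47 of the 48 clones the value lay closer to 0 than the mean of the standard arrays. The 465 clones of the array with a standard mean of -0.7 or less, chosen by that mean, had a median of -0.96 there and of -0.60 with the dyes exchanged. Clone 155828 read -3.14 with the dyes exchanged, clone 153428 -2.42 and clone 134194 -1.28, against standard means of -4.55, -4.13 and -2.80. This was a single array, so it has no replicate of its own.

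**Figure D4:**
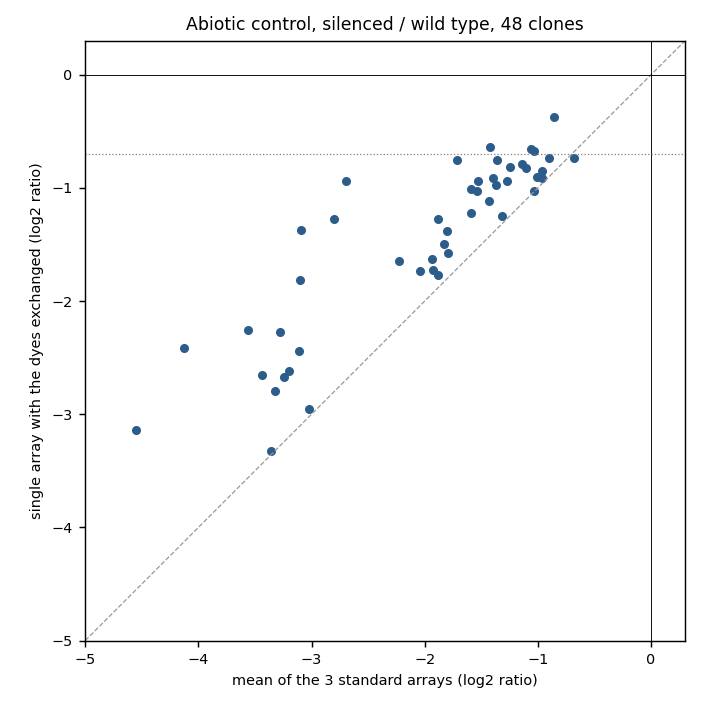
Log2 ratio of each of the 48 clones in the abiotic control, with the mean of the 3 standard arrays on the x axis and the single array with the dyes exchanged on the y axis (dashed line, equal values; dotted line, -0.7). All points lie below 0 on both axes and 47 of 48 lie above the dashed line.

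The wild-type elicitor arrays, also left out of the choice, asked how the same transcripts respond in unsilenced cells. At 4 h of harpin, 29 of the 48 clones fell, 3 rose and 16 did not pass an adjusted p of 0.05 (limma across all tested clones, Benjamini-Hochberg). Of all 6637 tested clones 26.6% fell and 26.9% rose, and among those with values in all 8 genotype groups, as the rule demands, 28.5% fell and 28.2% rose. In either direction 32 of the 48 passed, against 53.5% of all clones. The median log2 ratio of the 48 was -0.52 (range -2.60 to 1.32), against 0.06 for all tested clones. A fall of 2-fold or more was called for 18 (7.76% of all clones) and a rise of that size for 1 (5.2%). The untreated wild-type RNA on these arrays may be the RNA set against silenced cells in the biotic control, and the harpin-treated RNA that of the 4 h genotype arrays. The 2 kinds of ratio may therefore share samples, and the part of this sharing in the counts was not tested. For comparison, the mirror rule (0.7 or more, same kinds of spot) gave 60 clones higher in silenced cells in all 8 conditions. Of these, 47 were tested, of which 25 rose and 7 fell. The difference between the sets was not tested.

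The deepest falls with harpin were those of clones 153108, 161713 and 134239 of LOC102577779. Clone 153108 read -2.10, -2.69 and -3.0 on the 3 arrays, 6.04-fold lower (-2.60 ± 0.22, SE, n = 3, limma adjusted p = 1.06e-10). Clone 161713 read -2.32 and -2.13 on its 2 measured arrays (mean -2.22 ± 0.20, SE, n = 2, limma adjusted p = 4.96e-10). Clone 134239 read -2.43, -0.84 and -1.89, a wide spread that still lay below 0 throughout (-1.72 ± 0.19, SE, n = 3, limma adjusted p = 1.17e-08). Each SE and p of the wild-type responses and their difference rests on the spread within groups over all 30 arrays, 24 of them genotype arrays. For clone 134239 the 3 harpin arrays spread more widely than this SE shows. Its harpin call held with the 6 wild-type arrays fitted alone. The lowest clones by genotype were not alike here. Clones 156889 (-2.0, -1.47 and -1.54) and 147656 (-1.67, -1.51 and -1.58) fell by 1.67 and 1.59 on the log2 scale. Clone 155828, the lowest of all in silenced cells, read 0.13 and -0.38 on 2 arrays and did not pass (-0.12 ± 0.27, SE, n = 2, limma adjusted p = 0.725).

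Among the loci, both clones of LOC102577658 fell with harpin, clone 135127 by 1.12 and clone 142328 by 1.06 on the log2 scale. LOC102577734 (clone 161620, -1.13 ± 0.13, SE, n = 3) and LOC102577446 (clone 155591, -1.19 ± 0.16, SE, n = 3) fell too. Of the 6 clones of LOC102582711, 5 fell. Clone 158371 (-1.08, -1.18 and -1.04) went furthest, at -1.10, and clone 148982 (-0.70, -0.79 and -0.77) reached -0.75. Clones 161340 (-0.47), 153077 (-0.32) and 134370 (-0.31) also fell, and clone 160930 stood at -0.26 without passing (limma adjusted p = 0.101). The call on clone 134370 was lost without any 1 of the 3 harpin arrays, with values of -0.30, -0.29 and -0.35, and that on clone 153077 was lost without replicate 3 (-0.29). With arrays scaled to a common spread, the calls on clones 161340 (-0.36), 153077 (-0.24) and 134370 (-0.24) were lost, as they were with the 6 wild-type arrays fitted alone. With every spot fitted on its own, clones 161340 (-0.38) and 134370 (-0.30) did not pass on 1 of their spots. In that run each of the 32 clones passing in the main fit still had at least 1 spot that passed. The call on clone 134370 was also lost with array weights (-0.30) or a dye term (-0.27). The calls on clones 158371 and 148982 held under each alternative run. The 4 clones of LOC102587499 did not pass, with values of -0.13, -0.04, 0.04 and 0.28, nor did LOC102585195 (clone 145820, 0.01 ± 0.30, SE, n = 3).

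The 3 clones that rose with harpin were 132292, 158792 and 136640. Clone 132292 read 1.32 and 1.32 on 2 arrays, 2.5-fold higher (1.32 ± 0.20, SE, n = 2, limma adjusted p = 4.47e-06). Its genotype ratio, set beside this, was -1.47 in the biotic control and -2.81 at 4 h of harpin. Clone 158792 read 0.57, 1.01 and 0.55 (0.71 ± 0.12, SE, n = 3, limma adjusted p = 1.52e-05), with genotype ratios of -0.72 and -1.25. Clone 136640 read 0.16, 0.86 and 0.59 (0.53 ± 0.17, SE, n = 3, limma adjusted p = 0.0115), and its call was lost without replicate 2 (0.37) or replicate 3 (0.51). Its genotype ratios were -1.30 and -1.80. Since the arrays may share wild-type RNA, the pairs of values are set side by side only. The wild-type harpin array with the dyes exchanged read 1.09, 0.85 and 0.66 for these clones. On that array all 29 clones that had fallen were below 0. It repeated the comparison that gave these calls and may carry the same RNA.

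At 4 h of megaspermin, 16 of the 48 clones fell, 3 rose and 29 did not pass (limma, adjusted p of 0.05), with a median of -0.19 (range -1.90 to 0.97) against 0.03 for all tested clones. Of all 7078 tested clones 22.8% fell and 23.3% rose, and 27% and 25.1% of those with values in all 8 genotype groups. A fall of 2-fold or more was called for 8 of the 48 (6.08% of all clones) and a rise of that size for 0 (6.22%). In either direction 19 of the 48 passed, against 46% of all clones. Clone 153108 was again the lowest, with -2.06, -2.43 and -1.19 (-1.90 ± 0.22, SE, n = 3, limma adjusted p = 2.54e-08). Clones 134194 (-1.11, -1.49 and -2.09; -1.56 ± 0.27, SE, n = 3) and 161713 (-1.97, -1.87 and -0.84; -1.56 ± 0.16, SE, n = 3) followed. LOC102577734 (clone 161620) fell to -1.42 ± 0.13 (SE, n = 3) and LOC102577446 (clone 155591) to -0.92 ± 0.16 (SE, n = 3). Of LOC102582711, clone 158371 fell (-0.61 ± 0.14, SE, n = 3) and the other 5 did not pass, at -0.32 to 0.21. The clones that rose were 145820 of LOC102585195, 158792 and 153209. Clone 145820 read 0.68, 1.29 and 0.94 (0.97 ± 0.30, SE, n = 3, limma adjusted p = 0.00947), and without replicate 2 the call was lost at 0.81. Clone 158792 read 0.43, 0.78 and 0.34 (0.52 ± 0.12, SE, n = 3) and clone 153209 0.28, 0.37 and 0.88 (0.51 ± 0.12, SE, n = 3).

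**Figure D5:**
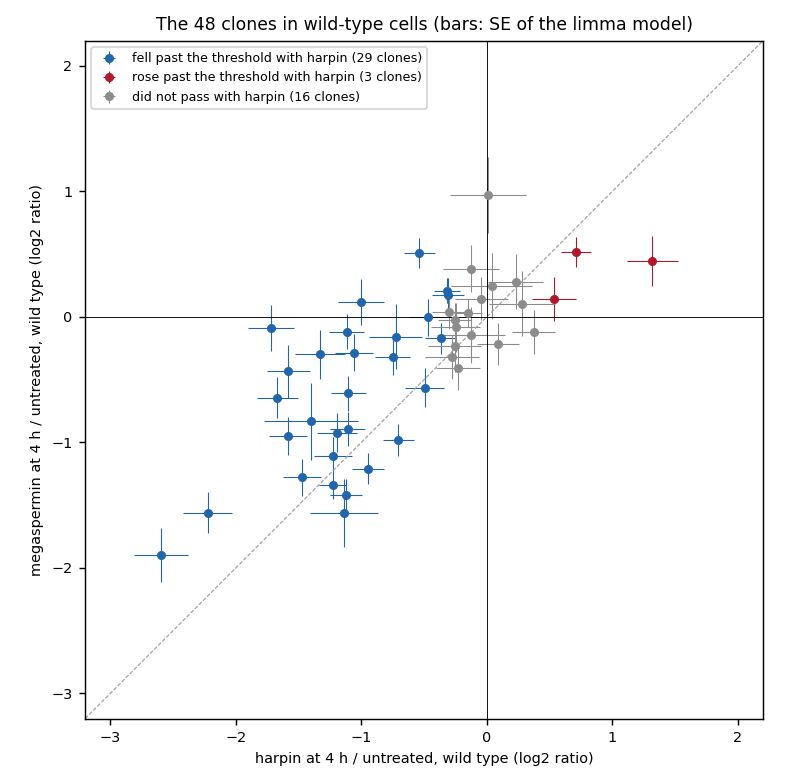
Fitted wild-type log2 ratio of each of the 48 clones after 4 h of harpin (x axis) and of megaspermin (y axis), both over untreated cells (bars, SE of the limma model; dashed line, equal values; colours, result with harpin). Most of the 29 clones that fell with harpin (blue) lie above the dashed line, and 1 of the 3 that rose (red) stands alone at 1.32. Blue clones were picked by a low harpin value, which by itself favours a place above the line, so nothing is read from this.

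Harpin and megaspermin were also tested against each other in the wild type, and both responses may rest on the same untreated RNA. In 10 of the 48 clones the level was lower with harpin than with megaspermin and in 1 it was higher (limma, adjusted p of 0.05), against 6.93% each way of all 6032 tested clones (13.9% in either direction). Of those with values in all 8 genotype groups 7.12% were lower and 7.69% higher. The difference reached 2-fold downward in 6 of the 48 (2.83% of all clones) and upward in 0 (1.79%). Fitted on the 6 wild-type arrays alone, 3 of these differences passed (clones 153209, 153428 and 156889), and 2 passed with arrays scaled to a common spread (clones 134239 and 153209). The largest was that of clone 134239 of LOC102577779, which fell with harpin and read -0.33, 0.06 and 0.01 with megaspermin (difference -1.63 ± 0.26, SE, n = 6, limma adjusted p = 6.57e-05). Its genotype ratios at 4 h, set beside this, were -0.77 for harpin and -2.28 for megaspermin. Clone 148010 followed (-1.15 ± 0.27, SE, n = 5, limma adjusted p = 0.00451), with -1.89, -1.04 and -1.81 for harpin and -0.81 and -0.05 for megaspermin. Clone 153209 was the one that passed in opposite directions, with -0.55, -0.46 and -0.60 for harpin against the rise with megaspermin. With arrays scaled both of these calls were lost (-0.42 and 0.44), while the difference passed (-0.86; unscaled -1.05 ± 0.17, SE, n = 6, limma adjusted p = 8.73e-05). Both clones of LOC102577658 were lower with harpin, by 1.0 ± 0.20 (SE, clone 135127) and 0.77 ± 0.21 (SE, clone 142328) on the log2 scale; without replicate 2 of harpin or replicate 3 of megaspermin the latter no longer passed (-0.55 and -0.67). Clone 132292 was higher with harpin, reading 0.28 and 0.61 with megaspermin on 2 arrays (difference 0.87 ± 0.28, SE, n = 4, limma adjusted p = 0.0396). This call was lost with the 6 wild-type arrays alone (0.872), with arrays scaled (0.649) and with a dye term (0.725). On 1 of its spots fitted on its own the difference did not pass either (0.902).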

How the data were processed

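Each array compared total RNA of a query and a reference in the dyes Cy3 and Cy5. Volumes of the genotypes were matched at random, 3 arrays a group, per the labels. The authors deposited 1 table of 32448 spots by 32 arrays, read here as log2 ratios normalized within each array; not given in the sources used here are the log base, how signals were normalized, and which dye was the numerator. Channel signals were not used here, so no level of a clone is given. The 2 arrays with exchanged dyes correlated positively with their standard arrays (0.597 to 0.684 and 0.829 to 0.900), so their signs had been turned. No 2 arrays held identical values (0 pairs).

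Spots were paired into 15360 clones by the layout, which matched 905 of 905 pairs of the platform's name table; 1728 spots without a partner were left out. Paired spots correlated with a median of 0.79 (no symbol) and 0.896 (symbol). Locus numbers came from that name table and have no description there, and 1 of its symbols matched the tobacco gene table given. A single symbol was held by 815 clones, several by 90 and none by 14455. No sequences were available here, so none are shown.

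The 48 clones, their rule and the earlier lists were chosen with results of these data known. Genotype values were summarised by group mean, SD and overlap of arrays, without a test. Wild-type responses were tested in R 4.3.3 with limma 3.58.1: 1 mean per group over 30 arrays, empirical Bayes (8.02 prior degrees of freedom), Benjamini-Hochberg over all clones with at least 2 values per group, threshold 0.05. On simulated data for the harpin response (6637 clones, 200 changed by a log2 value of 1) 94% were recovered with 13 false calls. The simulated noise was independent between arrays, and far fewer clones changed than were called in the data. These rates may therefore not hold for the data. Python 3.11.15, numpy 2.4.6, pandas 2.3.3 and matplotlib 3.10.9 were used for tables and figures. Named were all clones with a locus number and, by size, the extremes of the genotype mean, its range, the replicate spread, each wild-type response and their difference, plus spots at the limit; clones set beside these for likeness or in the dye comparison were chosen after their values were seen. Alternatives were single spots, wild-type arrays alone, centring, scaling, array weights, a dye term, 3 values per group, a replicate block, leaving out arrays, clones with both spots in the set, and other forms of the rule. The small number of arrays limits the precision.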

Additional observations from a re-analysis of the deposited data

Results flagged for a closer look

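In 11 of the 48 clones the wild-type response to harpin differed from that to megaspermin by a direct test (limma, adjusted p of 0.05). Groups of 3 arrays were not tested for outlying values, but each array was left out in turn. A clone with 2 values in a group could not be tested without either of them. Clone 132292, with 2 values for each elicitor, was therefore fitted only without arrays on which it had no value. Leaving out arrays was no check on its difference. For clone 148010, with 2 values for megaspermin, it was a check on the harpin arrays only. The difference, harpin minus megaspermin on the log2 scale, was -1.631 for clone 134239 (LOC102577779), -1.148 for 148010, -1.118 for 132299, -1.048 for 153209, -1.03 for 153428 and -1.025 for 156889. It was -1.0 for clone 135127 and -0.773 for clone 142328, both of LOC102577658, -0.637 for 147656, -0.526 for clone 153077 (LOC102582711) and 0.872 for clone 132292. Clones 153428, 156889 and 153209 still passed when the 6 wild-type arrays were fitted alone, and clones 134239 and 153209 when arrays were scaled to a common spread, where the separate calls on clone 153209 with each elicitor were lost. The difference for clone 153428 no longer passed without replicate 3 of harpin (-0.93), and that for clone 147656 ended without any 1 of the 6 arrays (-0.68 to -0.60). Both responses may rest on the same untreated RNA, and the part of shared RNA in these differences was not tested.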

How the results depend on the processing

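With a limit of -1 in place of -0.7 the rule gave 33 of the 82 spots; limits of -0.6 and -0.8, 3 values per group, medians, centring, scaling and the dye-exchanged array as a further array gave 62 to 108, and leaving out 1 array at a time 72 to 86. In the 34 clones with both spots in the set, 21 passed with harpin, 12 with megaspermin and 7 in the difference. Leaving out 1 array at a time gave 23 to 33 clones with harpin (32 with all arrays), 18 to 22 with megaspermin (19) and 8 to 10 in the difference (11), fewer clones being testable in some fits. The difference passed in 3 clones with the 6 wild-type arrays alone and in 2 with arrays scaled. With harpin 28 passed with the 6 arrays alone (38.8% of all tested clones) and 23 with scaling (38.4%). With megaspermin 19 (33.5%) and 16 (36.4%) did. With a replicate block 32, 20 and 10 clones passed. Deviations of same-numbered arrays of the elicitors correlated at -0.113, 0.282 and -0.00939 over 3114 clones. These values do not settle whether same-numbered arrays share RNA. With a dye term, clone 134322 of LOC102587499 passed with harpin at 0.733 against -0.127 and with megaspermin at 1.246 against 0.385 (0.571, passing, without replicate 2 of megaspermin). Clone 132341 of that locus passed with megaspermin at 0.787 against 0.146. Neither has a value on the dye-exchanged harpin array. Of the values of named clones under alternatives, 298 of 320 kept their side of the threshold with harpin, 319 of 335 with megaspermin and 375 of 408 in the difference. These counts include fits without an array on which the clone had no value, where its value stayed the same. Over all clones the difference passed for 836, for 130 with the 6 arrays alone, 339 with scaling and 527 to 798 without 1 array, and harpin for 3548, or 2198 without its replicate 2; megaspermin passed for 3259, or 2112 without its replicate 2. Spot signals were not used, so what low signal limits is not given.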

Other observations

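Outside the clones named by rule, a group without a symbol fell with harpin and with megaspermin alike in wild-type cells; these clones were chosen after their values were seen. With harpin and megaspermin respectively, clone 145305 read -1.47 and -1.28, clone 151068 read -1.11 and -0.89, clone 145331 read -1.23 and -1.11, clone 139509 read -0.95 and -1.21 and clone 140616 read -0.71 and -0.98, each past the threshold in both (limma, adjusted p of 0.05). Smaller falls past the threshold in both were those of clone 158325 (-0.496 and -0.565). Of these clones, 151068 had a genotype mean of -2.49 over the 8 conditions, with -3.19, -3.37 and -2.78 in the abiotic control. That of clone 140616 was -1.40.

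Another group, without a call in either response, held clones that were deep in silenced cells. Clone 159881 (genotype mean -2.24) read 0.23 and 0.28 with the 2 elicitors, clone 150588 (-2.19) -0.28 and -0.32, and clone 134973 (-2.12) -0.25 and -0.08. Clone 150588 read -3.48, -3.38 and -3.46 in the abiotic control and -1.28, -0.99 and -1.05 at 8 h of harpin, without overlap. A p above the threshold does not show that these clones did not respond.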
